A study of Mus musculus with 36 samples.

Results

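Transcripts of 9 transaminases were followed in the brains of mice with and without Gpt2: Gpt2 itself, Gpt, Got1, Got2, Bcat1, Bcat2, Kyat1, Kyat3 and Aadat. They were chosen by symbol, and all 9 were found among the 56184 gene symbols of the authors' count table and among the 21637 genes of their CPM table (counts scaled to a common library total). Polyadenylated RNA was measured in 36 libraries, each from 10 mg of brain frozen on postnatal day 19. The 4 groups were Gpt2 wild type with vehicle (WT-Veh, n = 10), wild type with dm-αKG (WT-aKG, n = 8), Gpt2 knockout with vehicle (KO-Veh, n = 10) and knockout with dm-αKG (KO-aKG, n = 8). dm-αKG is a dimethyl ester of α-ketoglutarate that crosses cell membranes, and it was injected intraperitoneally at 600 mg per kg. The replicates of a group are called biological, but no label ties a library to an animal of its own. The p-values thus cover the spread among libraries, which may be technical. The labels do not state strain, sex, brain region, the number of injections or which part of Gpt2 is deleted.

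Transaminases move an amino group from an amino acid to a keto acid, with pyridoxal phosphate (the active form of vitamin B6) as cofactor, and most of them use α-ketoglutarate and glutamate as one pair of partners. The alanine transaminases link pyruvate to alanine, the aspartate transaminases link oxaloacetate to aspartate and drive the malate-aspartate shuttle, and the branched-chain transaminases start the breakdown of leucine, isoleucine and valine. In brain these reactions supply and recycle the nitrogen of glutamate. The kynurenine aminotransferases convert kynurenine to kynurenic acid and also act on glutamine and other amino acids. Gpt2 is the mitochondrial alanine transaminase, and its loss in people causes a neurodevelopmental disorder.

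Libraries held 5.77 to 13.3 M counts (median 11.4 M), so that a gene near 1 CPM rested on few counts. Markers of neurons, astrocytes, oligodendrocytes and microglia were detected in every group, with no marker at 0 in all libraries. The pieces of brain differed within groups. A cerebellum marker score, which is the mean log2 CPM of 18 genes, stood over 1 log2 unit above its mean in 9 libraries, of which 7 were wild type (3 with vehicle, 4 with dm-αKG) and 2 knockout (1 with each). The X-linked transcript Xist exceeded the Y-linked Ddx3y in 2, 5, 2 and 4 libraries of these groups in turn. Levels below are CPM scaled by TMM (a scaling between libraries). Log2 fold changes and adjusted p-values are from edgeR, with Benjamini-Hochberg adjustment over all 16255 genes tested. A gene was called at an adjusted p under 0.05.

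Gpt2, on the plus strand of chromosome 8 (85492576 to 85527560 in GRCm38), was the targeted gene. WT-Veh libraries ran from 22 to 39.0 CPM with a median of 29.7, and WT-aKG libraries from 26.2 to 38.0 with a median of 31.8. KO-Veh libraries ran from 0.879 to 3.30 CPM with a median of 1.78, and KO-aKG libraries from 1.12 to 3.17 with a median of 2.51. All 18 knockout libraries lay below the lowest wild-type library, so each stood on the side of its label. Averaged over the treatments, Gpt2 fell by 93.0% in knockouts, a log2 fold change of −3.83 (SE 0.14, edgeR adjusted p = 1.80e-21), and it ranked 1 of 16255 genes by p in each of the 3 genotype comparisons. Without the 9 cerebellum-high libraries the averaged value was −3.85. It did not fall to 0, since 10 to 38 Gpt2 counts remained in each knockout library. Whether those reads lie inside the deleted part was not tested.

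The genotype comparisons asked whether transcripts of the other transaminases differed in brains without Gpt2. Of the 9 members, 8 passed the filter on low counts, and Aadat did not. With vehicle, 1 of the 8 was called, Gpt2 itself, where 4.31% of all genes tested were called (2.6% higher and 1.72% lower). With dm-αKG, 2 of 8 were called (Gpt2 lower, Bcat1 higher), against 1.87% of all genes (1.12% higher and 0.751% lower). Averaged over both treatments, the same 2 of 8 were called, against 11.9% of all genes (5.71% higher and 6.17% lower). At an unadjusted p under 0.05 these 2 members passed in each comparison, where 21%, 15.7% and 28.5% of all genes did. Bcat1, the cytosolic branched-chain transaminase, was thus the 1 other member whose transcript passed the test. The comparisons share libraries and are given side by side, not as separate evidence. The remaining 6 had averaged log2 fold changes of −0.004 to 0.11, adjusted p-values of 0.498 to 0.982, and 95% intervals that lay within −0.31 to 0.37. The median log2 fold change of the 8 members was 0.08, beside −0.02 for all genes tested.

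**Figure D1:**
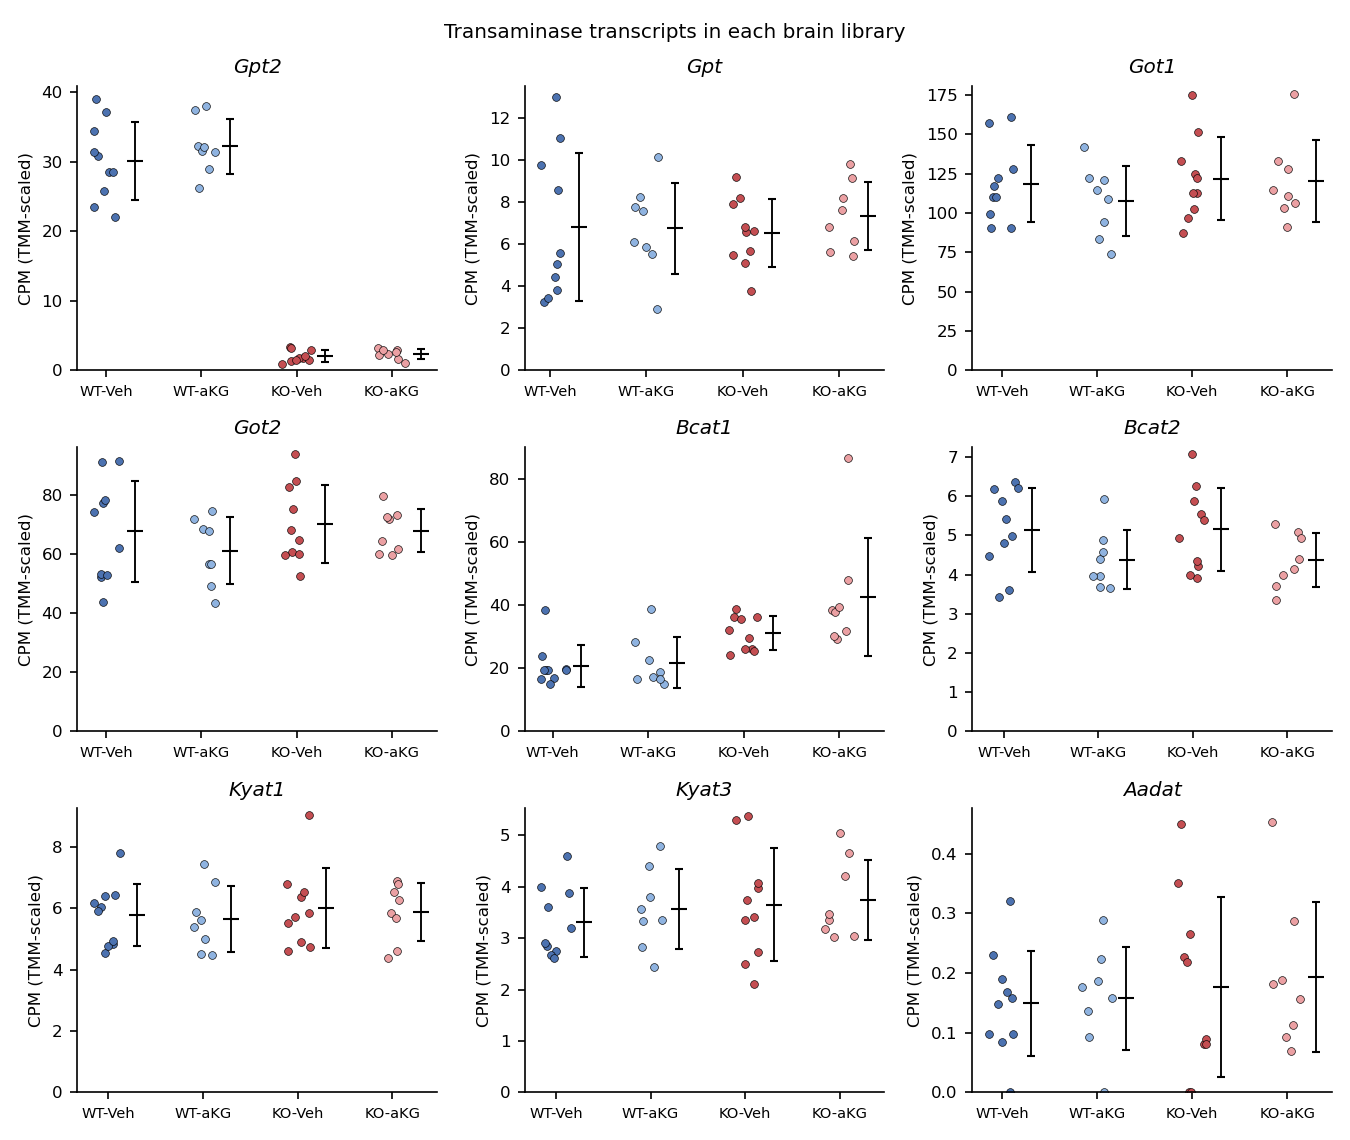
CPM (TMM-scaled, vertical axes from 0) of the 9 transaminases in the 4 groups, with libraries as points and the mean and SD as black marks with bars. Gpt2 separates the genotypes, all 18 knockout libraries of Bcat1 lie above the wild-type median, and the groups overlap for the other 7 members.

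Gpt encodes the cytosolic alanine transaminase, which catalyses the reaction of Gpt2 outside the mitochondrion. It lies on chromosome 15 (76695716 to 76699686, plus strand). Gpt stood at 6.81 ± 3.52 CPM in WT-Veh (SD, n = 10; 3.26 lowest, 5.35 median, 13.0 highest) and 6.54 ± 1.61 in KO-Veh (n = 10; 3.78, 6.61 and 9.21). With dm-αKG it was 6.78 ± 2.17 in wild types (n = 8; 2.90, 6.86 and 10.1) and 7.36 ± 1.63 in knockouts (n = 8; 5.44, 7.23 and 9.83). The 4 groups overlapped, and the lowest and the highest library were both wild type. The averaged log2 fold change was 0.03 (95% interval −0.31 to 0.37, edgeR adjusted p = 0.932). That interval runs from 19.5% below to 29.5% above the wild-type level, so a larger averaged rise of Gpt lies outside it in this fit. The single comparisons were wider, up to 31.8% above with vehicle and 54.7% above with dm-αKG. Other fits gave averaged log2 fold changes from −0.15 (without the cerebellum-high libraries) to 0.25 (with 4 cell type scores), none of them called. The longest exact run of bases shared by Gpt and Gpt2 transcripts was 20.

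Got1 and Got2 encode the cytosolic and the mitochondrial aspartate transaminase, the pair that carries nitrogen through the malate-aspartate shuttle. Got1 lies on chromosome 19 (43499752 to 43524605, minus strand) and Got2 on chromosome 8 (95864134 to 95888547, minus strand). Got1 was at 119 ± 24.6 CPM in WT-Veh (SD, n = 10; 90.6 lowest, 114 median, 161 highest) and 122 ± 26.2 in KO-Veh (n = 10; 87.3, 118 and 175). It was at 108 ± 22.3 in WT-aKG (n = 8; 74.1, 112 and 142) and 120 ± 26.0 in KO-aKG (n = 8; 91.3, 113 and 176). The genotypes overlapped over most of their range, with 2 of 18 knockout libraries above the highest wild type. The genotypes of Got2 also overlapped, at 67.8 ± 17.2 CPM in WT-Veh (43.8, 68.3 and 91.7), 70.3 ± 13.3 in KO-Veh (52.7, 66.5 and 93.8), 61.1 ± 11.4 in WT-aKG (43.3, 62.2 and 74.8) and 68.0 ± 7.35 in KO-aKG (59.8, 68.2 and 79.7). Neither gene was called between genotypes. The averaged log2 fold changes were 0.10 for Got1 (95% interval −0.10 to 0.30, edgeR adjusted p = 0.536) and 0.10 for Got2 (−0.09 to 0.30, adjusted p = 0.498).

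Neuron markers moved with the aspartate transaminases. Across the 36 libraries, with group means removed, log2 CPM of Got2 followed the score of 8 neuron markers (Pearson r = 0.846, permutation p = 1e-05, adjusted p = 0.00048; Spearman rho = 0.862, permutation p = 1e-05, adjusted p = 0.000384). That p is the smallest that 100000 resamples can give. The r was 0.909 within wild types, 0.726 within knockouts, 0.778 without the 9 cerebellum-high libraries and 0.826 without the 2 libraries farthest out. Got1 gave r = 0.692 (permutation p = 2e-05, adjusted p = 0.00048) and rho = 0.678 (permutation p = 2e-05, adjusted p = 0.000384). Its r was 0.778 in wild types, 0.591 in knockouts, 0.587 without the cerebellum-high libraries and 0.667 without the 2 farthest. In a bulk sample, fewer cells of a type and less RNA per cell cannot be told apart. The mean neuron score was 7.80 in WT-Veh, 7.75 in KO-Veh, 7.76 in WT-aKG and 7.55 in KO-aKG, with ranges of 7.43 to 8.27, 7.38 to 8.08, 7.44 to 8.15 and 7.38 to 7.75. All 8 neuron markers were tested, and 1 was called between genotypes in the averaged comparison, where 11.9% of all genes were called. In a fit with scores of neurons, astrocytes, oligodendrocytes and microglia as covariates, chosen after seeing the data, both genes were called higher in knockouts. The averaged log2 fold changes were then 0.24 for Got1 (edgeR adjusted p = 0.0117) and 0.29 for Got2 (adjusted p = 0.000100). With vehicle alone that fit called Got2 (0.21, adjusted p = 0.0254) and left Got1 uncalled (0.16, adjusted p = 0.243). Both values depend on that fit: without the cerebellum-high libraries the averaged changes were −0.004 and −0.03.

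Bcat1, the cytosolic branched-chain transaminase, passes the amino group of leucine, isoleucine or valine to α-ketoglutarate to form glutamate. It lies on the minus strand of chromosome 6 (144993835 to 145076184 in GRCm38). The 250 bases before its 2 RefSeq start sites (build GRCm38.p6, minus strand, 5′ to 3′) are shown because Bcat1 was the 1 member of the 9 that rose. The window of Got1 is added because it held the 1 motif match among the members, in capitals.

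Bcat1, chr6:145076158-145076407: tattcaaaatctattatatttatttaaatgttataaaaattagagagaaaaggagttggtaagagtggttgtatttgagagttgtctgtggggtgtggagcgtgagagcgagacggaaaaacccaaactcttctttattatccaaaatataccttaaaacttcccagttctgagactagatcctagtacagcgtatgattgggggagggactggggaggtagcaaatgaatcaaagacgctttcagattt
Bcat1, chr6:145048813-145049062: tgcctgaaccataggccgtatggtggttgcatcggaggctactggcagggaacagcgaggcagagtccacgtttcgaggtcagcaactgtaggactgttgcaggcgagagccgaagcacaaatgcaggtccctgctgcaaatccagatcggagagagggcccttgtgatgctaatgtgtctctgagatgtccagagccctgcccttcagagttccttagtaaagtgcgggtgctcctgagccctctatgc
Got1, chr19:43524606-43524855: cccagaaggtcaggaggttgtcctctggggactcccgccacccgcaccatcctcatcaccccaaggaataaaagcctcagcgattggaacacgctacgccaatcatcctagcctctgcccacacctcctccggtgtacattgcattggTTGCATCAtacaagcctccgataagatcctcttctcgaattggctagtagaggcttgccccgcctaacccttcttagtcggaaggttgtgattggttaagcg

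The motif searched was TGATGNAA, read on both strands (TTNCATCA on the other), the core of the C/EBP-ATF response element bound by ATF4. No other motif was searched. In windows from 250 bases before to 50 after a start, it was in 3.97% of 32851 RefSeq windows and in 4.51% of 27025 genes. Of 8 members with a window, only Got1 had a match (TTGCATCA, beginning 102 bases before the start). These letters are not in either Bcat1 window nor in that of Gpt2.

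The level of Bcat1 was 20.9 ± 6.67 CPM in WT-Veh (SD, n = 10; 15.1 lowest, 19.5 median, 38.6 highest) and 31.1 ± 5.4 in KO-Veh (n = 10; 24.3, 30.9 and 38.8). It was at 21.8 ± 8.12 in WT-aKG (n = 8; 15.2, 18.1 and 38.9) and 42.8 ± 18.7 in KO-aKG (n = 8; 29.4, 38.2 and 86.6). All 18 knockout libraries lay above the wild-type median of 19.5 CPM. The ranges still overlapped, because 1 library of each wild-type group reached over 38 CPM, and 3 of 18 knockout libraries lay above the highest wild type. Averaged over treatments, Bcat1 rose 1.71-fold in knockouts (95% interval 1.41 to 2.08), a log2 fold change of 0.77 (SE 0.14, edgeR adjusted p = 0.000278), ranking 161 of 16255 genes by p. With dm-αKG the log2 fold change was 0.97 (SE 0.21, adjusted p = 0.0076), or 1.96-fold. With vehicle it was 0.58 (SE 0.19, 95% interval 0.20 to 0.95), with an adjusted p of 0.0665 that missed the threshold. The genotype effects with and without dm-αKG differed by 0.39 (95% interval −0.17 to 0.96, edgeR adjusted p of the interaction = 0.961), so a difference between them was not shown.

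**Figure D2:**
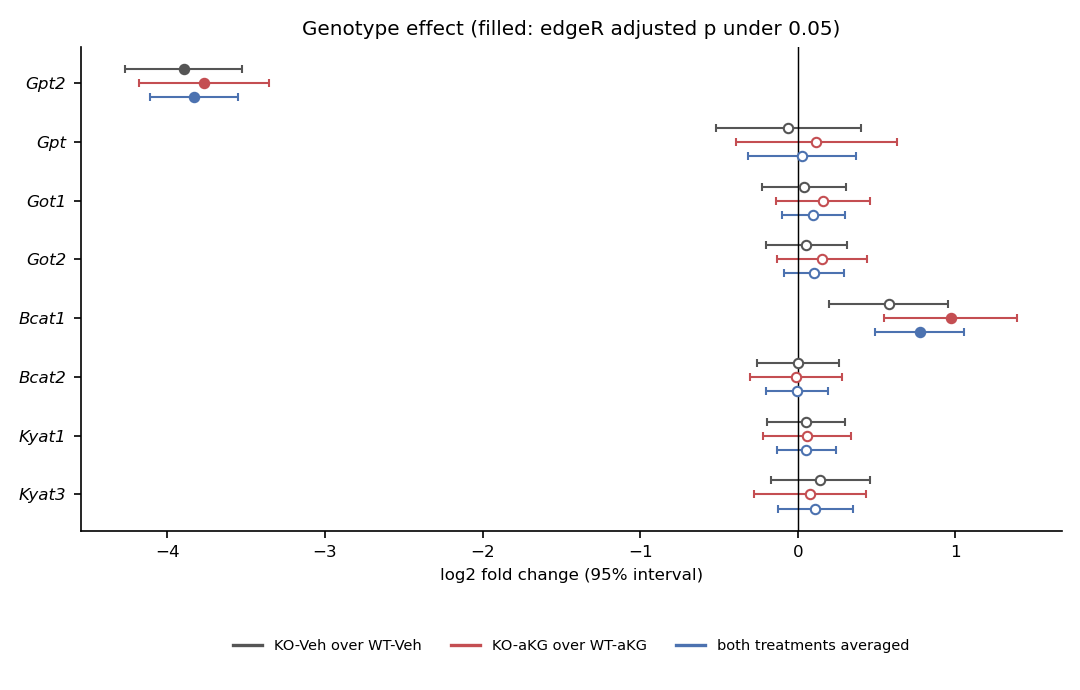
Log2 fold change of the 8 tested transaminases, knockout over wild type, with vehicle, with dm-αKG and averaged (points with 95% intervals, filled where called). Gpt2 lies near −3.8, Bcat1 lies right of 0 in all 3 comparisons and is called in the lower pair, and the intervals of the other 6 cross 0.

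The 3 libraries with the highest oligodendrocyte marker scores were also the 3 highest in Bcat1 within their groups. WT-Veh replicate 2 had a score of 9.74 (mean log2 CPM of 10 markers) and 38.6 CPM of Bcat1, WT-aKG replicate 8 had 9.56 and 38.9 CPM, and KO-aKG replicate 8 had 9.51 and 86.6 CPM. Across all 36 libraries, with group means removed, Bcat1 followed the score with r = 0.708 (permutation p = 3e-05, adjusted p = 0.00048) and rho = 0.495 (permutation p = 0.00338, adjusted p = 0.027). The r was 0.735 in wild types, 0.691 in knockouts, 0.744 without the cerebellum-high libraries and 0.554 without the 2 farthest libraries. The score itself averaged 7.85 in WT-Veh (6.74 to 9.74), 7.52 in KO-Veh (6.8 to 8.68), 8.06 in WT-aKG (6.87 to 9.56) and 8.33 in KO-aKG (7.73 to 9.51). With vehicle the knockouts had the lower mean score and the higher mean Bcat1, and with dm-αKG they had the higher mean of both. The part of oligodendrocyte content in the Bcat1 difference was not tested. None of the 10 oligodendrocyte markers was called between genotypes with vehicle, where 4.31% of all genes were called, so a count of 0 is near that share.

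Those 3 libraries were chosen after seeing the data, and they include the highest Bcat1 value of each wild-type group. Leaving them out lowers the overlap of the genotypes in Bcat1 in part by the choice itself. The values without them are a description. WT-Veh was then at 18.9 ± 2.55 CPM (SD, n = 9), WT-aKG at 19.4 ± 4.63 (n = 7), KO-Veh at 31.1 ± 5.4 (n = 10) and KO-aKG at 36.5 ± 6.56 (n = 7). Of 17 knockout libraries 13 lay above all 16 wild-type libraries, whose highest value was 28.3 CPM. The log2 fold changes were 0.72 with vehicle (edgeR adjusted p = 0.000266), 0.92 with dm-αKG (adjusted p = 0.000125) and 0.82 averaged (adjusted p = 1.26e-07). With all libraries and the oligodendrocyte score as a covariate they were 0.73 (adjusted p = 0.000523), 0.86 (adjusted p = 0.000379) and 0.80 (adjusted p = 3.11e-07). In a fit to the 2 dm-αKG groups alone, the change with dm-αKG was 0.98 and its adjusted p of 0.0520 missed the threshold. Without KO-aKG replicate 8 alone it was 0.74 (adjusted p = 0.0379). Without the 9 cerebellum-high libraries the log2 fold changes were 0.49 with vehicle (adjusted p = 0.185), 1.21 with dm-αKG (adjusted p = 0.0136) and 0.85 averaged (adjusted p = 0.00157).

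**Figure D3:**
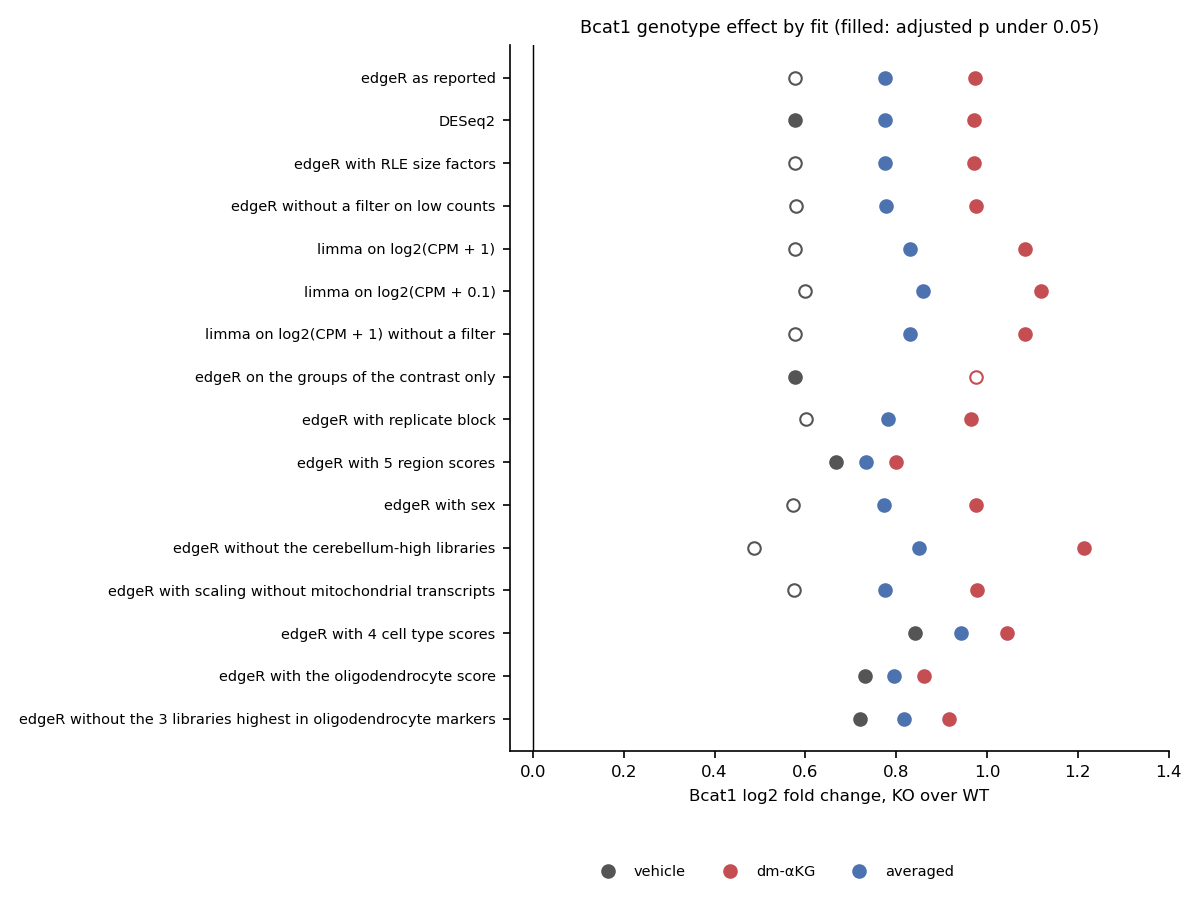
Log2 fold change of Bcat1 between genotypes (horizontal axis) under the reported fit and each alternative (rows), with vehicle, with dm-αKG and averaged, filled where the adjusted p was under 0.05. All values lie above 0, the vehicle value runs from 0.49 to 0.84 and is filled in 6 of 15 alternatives, and the averaged value is filled in every fit that gave one.

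Bcat2, the mitochondrial branched-chain transaminase, was not called in any comparison. It lies on chromosome 7 (45570153 to 45589711, plus strand). Bcat2 stood at 5.14 ± 1.07 CPM in WT-Veh (SD, n = 10; 3.43 lowest, 5.20 median, 6.37 highest) and 5.15 ± 1.06 in KO-Veh (n = 10; 3.92, 5.16 and 7.07). It was 4.39 ± 0.763 in WT-aKG (n = 8; 3.65, 4.19 and 5.94) and 4.36 ± 0.690 in KO-aKG (n = 8; 3.36, 4.26 and 5.29). The genotypes overlapped nearly completely within each treatment. The averaged log2 fold change was −0.004 (95% interval −0.20 to 0.19, edgeR adjusted p = 0.982). The 24 bases of the longest exact run shared by Bcat1 and Bcat2 transcripts were the most shared by any 2 members.

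The strand used in counting is not given, so reads from antisense partners cannot be told apart. Counts given to the antisense gene Gm15687, inside the Bcat1 interval, were 0 to 8 per library, in all 0.951% as many as those of Bcat1. For Bcat2 the antisense gene 0610005C13Rik had 1 to 13 counts per library, in all 8.39% as many as Bcat2.

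Kyat1 and Kyat3 encode kynurenine aminotransferases, also known as glutamine transaminases. Kyat1 lies on chromosome 2 (30185124 to 30205847, minus strand) and Kyat3 on chromosome 3 (142701051 to 142746870, plus strand). Kyat1 was at 5.78 ± 1.01 CPM in WT-Veh (SD, n = 10; 4.55 lowest, 5.97 median, 7.78 highest) and 6.0 ± 1.30 in KO-Veh (n = 10; 4.62, 5.77 and 9.02). It was at 5.64 ± 1.06 in WT-aKG (n = 8; 4.46, 5.49 and 7.44) and 5.87 ± 0.949 in KO-aKG (n = 8; 4.39, 6.05 and 6.89). Its groups overlapped, and the averaged log2 fold change was 0.05 (95% interval −0.13 to 0.24, edgeR adjusted p = 0.739). Kyat3 was at 3.31 ± 0.677 CPM in WT-Veh (2.62, 3.06 and 4.61), 3.65 ± 1.09 in KO-Veh (2.11, 3.57 and 5.37), 3.57 ± 0.773 in WT-aKG (2.43, 3.46 and 4.79) and 3.75 ± 0.782 in KO-aKG (3.03, 3.42 and 5.04). The highest 3 of its 18 knockout libraries lay above every wild type and the lowest 1 lay below every wild type. Its averaged log2 fold change was 0.11 (95% interval −0.13 to 0.35, edgeR adjusted p = 0.563).

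Aadat, which encodes the aminoadipate aminotransferase of lysine breakdown that also acts on kynurenine, was near the limit of detection. It lies on chromosome 8 (60505932 to 60545677, plus strand). Libraries held 0 to 7 Aadat counts, 32 in all 18 wild types and 36 in all 18 knockouts, and 4 libraries held none. Without the filter on low counts its averaged log2 fold change was 0.20 (95% interval −0.52 to 0.92, edgeR adjusted p = 0.952), so a difference was not detectable at this depth.

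The treatment comparisons asked whether dm-αKG moved the transaminases within a genotype. In both genotypes 0 of the 8 tested members were called, where 0% of all genes were called, and the interaction called 0 of 8, again against 0% of all genes. At an unadjusted p under 0.05, edgeR had 1391 genes (8.56%) in wild types, 1973 (12.1%) in knockouts and 729 (4.48%) for the interaction. DESeq2 called 78, 0 and 0 genes in turn, none of them a member. In wild types the fit with 5 region scores called 124 genes and the fit with 4 cell type scores 235, again with no member among them. Of the members, only Bcat1 in knockouts had an unadjusted p under 0.05: its log2 fold change with dm-αKG was 0.46 (95% interval 0.07 to 0.85, unadjusted p = 0.0232, edgeR adjusted p = 0.332). Oligodendrocyte markers stood higher in KO-aKG than in KO-Veh on average (8.33 against 7.52). With their score as a covariate, chosen after seeing the data, the Bcat1 change was 0.08 (edgeR adjusted p = 0.912). Because the score differed with treatment in knockouts, the part of each cannot be told apart. Without KO-aKG replicate 8, and with no covariate, the Bcat1 change was 0.23.

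For the targeted gene, residual Gpt2 in knockouts differed with dm-αKG by 0.23 (95% interval −0.18 to 0.63, edgeR adjusted p = 0.681), and Gpt2 in wild types by 0.10 (−0.23 to 0.43, adjusted p = 0.980). Bcat2 had values of −0.22 in wild types (95% interval −0.50 to 0.05, edgeR adjusted p = 0.714) and −0.24 in knockouts (−0.51 to 0.04, adjusted p = 0.502). Over the 6 members other than Gpt2 and Bcat1, treatment changes ran from −0.22 to 0.11 in wild types and from −0.24 to 0.18 in knockouts. Their 95% intervals lay within −0.50 to 0.48 and within −0.51 to 0.66. The median log2 fold change of the 8 members was −0.02 in wild types and 0.01 in knockouts, beside −0.01 for all genes in both.

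**Figure D4:**
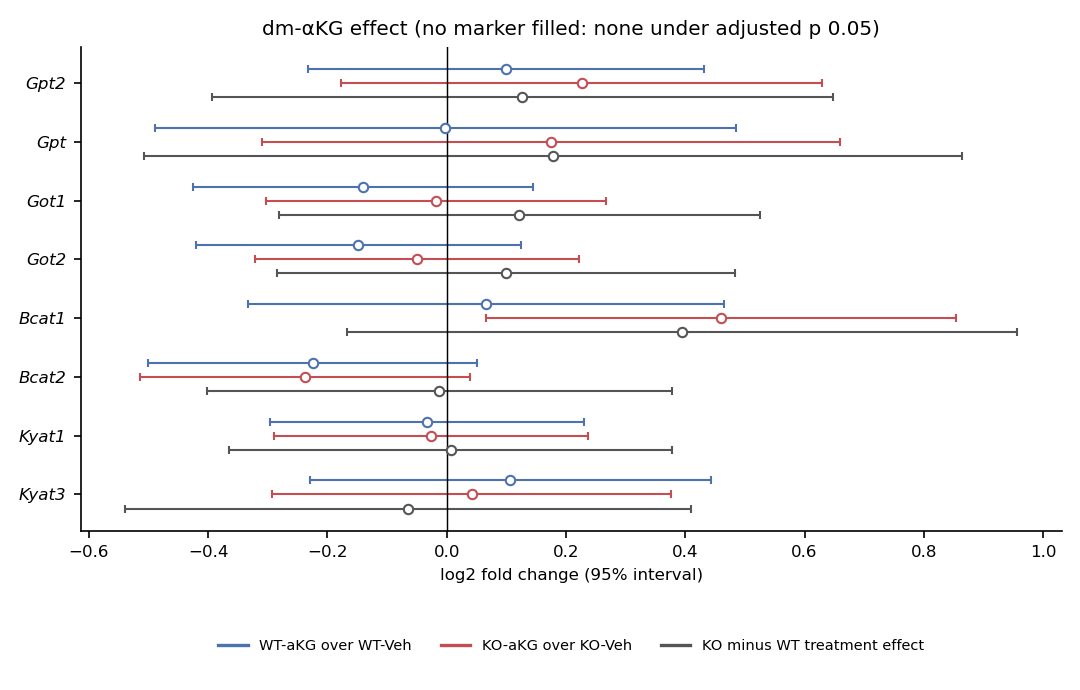
Log2 fold change with dm-αKG over vehicle in wild types and in knockouts, and the difference between them, for the 8 tested transaminases (points with 95% intervals). No point is filled because none was called, and the knockout interval of Bcat1 (0.07 to 0.85) is the 1 that does not cross 0.

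Other aminotransferases gave 1 call in each direction. Of 13 listed, 8 were tested, none was called with vehicle or with dm-αKG, and 2 were called in the averaged comparison, where 4.31%, 1.87% and 11.9% of all genes were called. Psat1, the phosphoserine aminotransferase of serine synthesis, rose by 0.35 (SE 0.11, edgeR adjusted p = 0.0409). Its medians were 50.9 CPM in WT-Veh, 62.9 in WT-aKG, 70.9 in KO-Veh and 73.0 in KO-aKG, with overlapping ranges. Oat, the ornithine aminotransferase, fell by 0.22 (SE 0.06, adjusted p = 0.0163). The median log2 fold change of the 8 was −0.01, beside −0.02 for all genes. The Psat1 call was lost on leaving out any 1 of 11 of the 36 libraries (adjusted p up to 0.0843), and it held in 10 of 14 other fits. The Oat call held whichever library was left out and in 8 of 14 other fits.

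Genes that carry or use alanine, pyruvate or glutamate, 27 of 27 tested, were mostly not called. With vehicle 2 were called higher and 2 lower, with dm-αKG 2 higher and 0 lower, and averaged 2 higher and 4 lower, against 4.31%, 1.87% and 11.9% of all genes in either direction. Their median log2 fold changes were −0.03, −0.07 and −0.06. Slc1a4, a neutral amino acid exchanger that carries alanine and serine, rose by 0.79 with vehicle (SE 0.16, edgeR adjusted p = 0.00284) and 0.94 with dm-αKG (SE 0.18, adjusted p = 0.00275). Its libraries ran from 16.4 to 38.4 CPM in WT-Veh, 16.9 to 37.5 in WT-aKG, 27.2 to 70.0 in KO-Veh and 36.7 to 70.8 in KO-aKG. Aars1, the cytosolic alanyl-tRNA synthetase, rose by 0.76 with vehicle (SE 0.13, edgeR adjusted p = 0.000367) and 0.79 with dm-αKG (SE 0.15, adjusted p = 0.00194). With vehicle the libraries of Aars1 overlapped, at 27.6 to 54.3 CPM in WT-Veh and 41.3 to 105 in KO-Veh. With dm-αKG they ran from 28.6 to 41.3 in WT-aKG and from 47.5 to 70.8 in KO-aKG.

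In the opposite direction, Slc7a10, a transporter of serine, alanine and glycine, fell by 0.82 with vehicle (SE 0.19, edgeR adjusted p = 0.0077) and had a value of −0.13 with dm-αKG (adjusted p = 0.821). Slc25a18, a mitochondrial glutamate carrier, fell by 0.67 with vehicle (SE 0.19, adjusted p = 0.0341) and had −0.28 with dm-αKG (adjusted p = 0.545). Averaged over treatments, Slc7a10 was called, at −0.47 (SE 0.14, edgeR adjusted p = 0.0227). The interaction called 0 of the 27 genes, so a difference between the 2 treatments was not shown for either gene. With 4 cell type scores as covariates both vehicle calls held, at −0.62 for Slc7a10 (edgeR adjusted p = 0.00105) and −0.50 for Slc25a18. The vehicle call of Slc25a18 held in 9 of 15 other fits and was lost on leaving out any 1 of 7 of the 36 libraries (adjusted p up to 0.0755). Astrocyte marker scores averaged 7.11 in WT-Veh (6.64 to 7.47), 6.93 in KO-Veh (6.60 to 7.18), 7.09 in WT-aKG (6.86 to 7.50) and 7.07 in KO-aKG (6.81 to 7.38). With vehicle 1 of 10 astrocyte markers was called lower, where 1.72% of all genes were called lower.

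The partners of Got1 and Got2 in the malate-aspartate shuttle, 7 of 7 tested, had 0 called higher and 1 lower with vehicle, none with dm-αKG and 0 higher and 2 lower averaged, where 4.31%, 1.87% and 11.9% of all genes were called. The 2 were Slc25a18 (−0.48, SE 0.14, edgeR adjusted p = 0.0242) and Mdh2, the mitochondrial malate dehydrogenase (−0.18, SE 0.06, adjusted p = 0.0493). The mitochondrial glutamate carrier Slc25a22 had −0.28 (SE 0.13, adjusted p = 0.152). The cytosolic enzyme Mdh1 had 0.04 (adjusted p = 0.752), the oxoglutarate carrier Slc25a11 −0.02 (adjusted p = 0.851), and the aspartate-glutamate carriers Slc25a12 and Slc25a13 had 0.06 and 0.07 (adjusted p = 0.623 and 0.878). The Mdh2 call was lost on leaving out any 1 of 27 of the 36 libraries, and it held in 3 of 14 other fits. The list's medians were −0.11 with vehicle, 0.08 with dm-αKG and −0.02 averaged.

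Enzymes downstream of Bcat1 gave no call, which in lists of this size is near the share of all genes with vehicle and with dm-αKG. Of 24 genes of branched-chain amino acid catabolism, all tested, none was called in any of the 3 genotype comparisons, where 4.31%, 1.87% and 11.9% of all genes were, and their medians were −0.05, −0.06 and −0.07. Of 14 genes of kynurenine and lysine degradation, the pathways of Kyat1, Kyat3 and Aadat, 10 were tested and none was called, with medians of 0.24, 0.27 and 0.14. The omega-amidases Nit1 and Nit2, which process the keto acids made by glutamine transaminases, had averaged values of 0.01 (edgeR adjusted p = 0.911) and 0.21 (adjusted p = 0.218). These counts of 0 are edgeR's, and DESeq2 also called 0 of either list. In the averaged comparison the fit with 5 region scores called 4 branched-chain genes, all higher, and the fit with 4 cell type scores called 3, all lower, and 2 kynurenine and lysine genes, both higher.

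Among genes of pyridoxal phosphate supply, Pdxp, the phosphatase that removes the phosphate, fell by 0.31 in the averaged comparison (SE 0.09, edgeR adjusted p = 0.0287). Its medians were 158 CPM in WT-Veh, 165 in WT-aKG, 134 in KO-Veh and 120 in KO-aKG, with overlapping ranges. It was not called in the single treatments, at −0.22 with vehicle (edgeR adjusted p = 0.324) and −0.41 with dm-αKG (adjusted p = 0.137). Pdxk, the kinase, had an averaged value of −0.03 (adjusted p = 0.897) and the binding protein Plpbp 0.12 (adjusted p = 0.217).

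Psat1 and Aars1 also belong to a list of 34 ATF4 targets (ATF4 is a transcription factor activated when amino acids run short). That list was known from earlier results on these data to be higher in knockouts, so its count is a description. Called higher were 25 with vehicle, 23 with dm-αKG and 28 averaged, and none was called lower. Of all genes 2.6%, 1.12% and 5.71% were called higher in turn. Its median log2 fold changes were 0.94, 0.91 and 0.91. Bcat1 is not on the list. Across libraries with group means removed, the averaged level of the list and Bcat1 had r = 0.387 (permutation p = 0.018, adjusted p = 0.0677) and rho = 0.303 (permutation p = 0.0818, adjusted p = 0.229). That r was 0.473 in wild types, 0.390 in knockouts, 0.449 without the cerebellum-high libraries and 0.232 without the 2 farthest libraries. Whether ATF4 acts on Bcat1 was not tested. Got2 followed the list with r = 0.555 (permutation p = 6e-05, adjusted p = 0.00064) and rho = 0.621 (permutation p = 2e-05, adjusted p = 0.000384). That r was 0.886 in wild types, 0.478 in knockouts, 0.490 without the cerebellum-high libraries and 0.503 without the 2 farthest. Got1 gave r = 0.521 (permutation p = 0.00144, adjusted p = 0.00922) and rho = 0.479 (permutation p = 0.00466, adjusted p = 0.0331), and r was 0.827 in wild types, 0.425 in knockouts and 0.473 without the 2 farthest.

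Within groups, several transaminases varied with marker scores of cell types or regions. There were 64 relations tested, 8 members against 8 scores, by permutation within groups. Bcat2 followed none of the 8 scores, with adjusted p-values of at least 0.396 for r and 0.446 for rho. Gpt2, examined in the 18 wild types, followed the astrocyte score with r = 0.835 (permutation p = 6e-05, adjusted p = 0.00064) and rho = 0.860 (permutation p = 3e-05, adjusted p = 0.000384). The r was 0.775 without the 2 farthest libraries and 0.809 in the 11 libraries that were not cerebellum-high. Its r with the neuron score was 0.064 (permutation p = 0.813, adjusted p = 0.883). Gpt followed the cerebral cortex score with r = 0.665 (permutation p = 8e-05, adjusted p = 0.000731) and rho = 0.715 (permutation p = 4e-05, adjusted p = 0.000427). That r was 0.783 in wild types, 0.463 in knockouts, 0.632 without the cerebellum-high libraries and 0.689 without the 2 farthest. Gpt also followed the microglia score, with r = 0.579 (permutation p = 0.00134, adjusted p = 0.00922) and rho = 0.484 (permutation p = 0.00602, adjusted p = 0.034). It ran opposite to the cerebellum score by r alone (−0.469, permutation p = 0.00916, adjusted p = 0.0419). By rho alone it ran opposite to the oligodendrocyte score (−0.492, permutation p = 0.00631, adjusted p = 0.034).

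**Figure D5:**
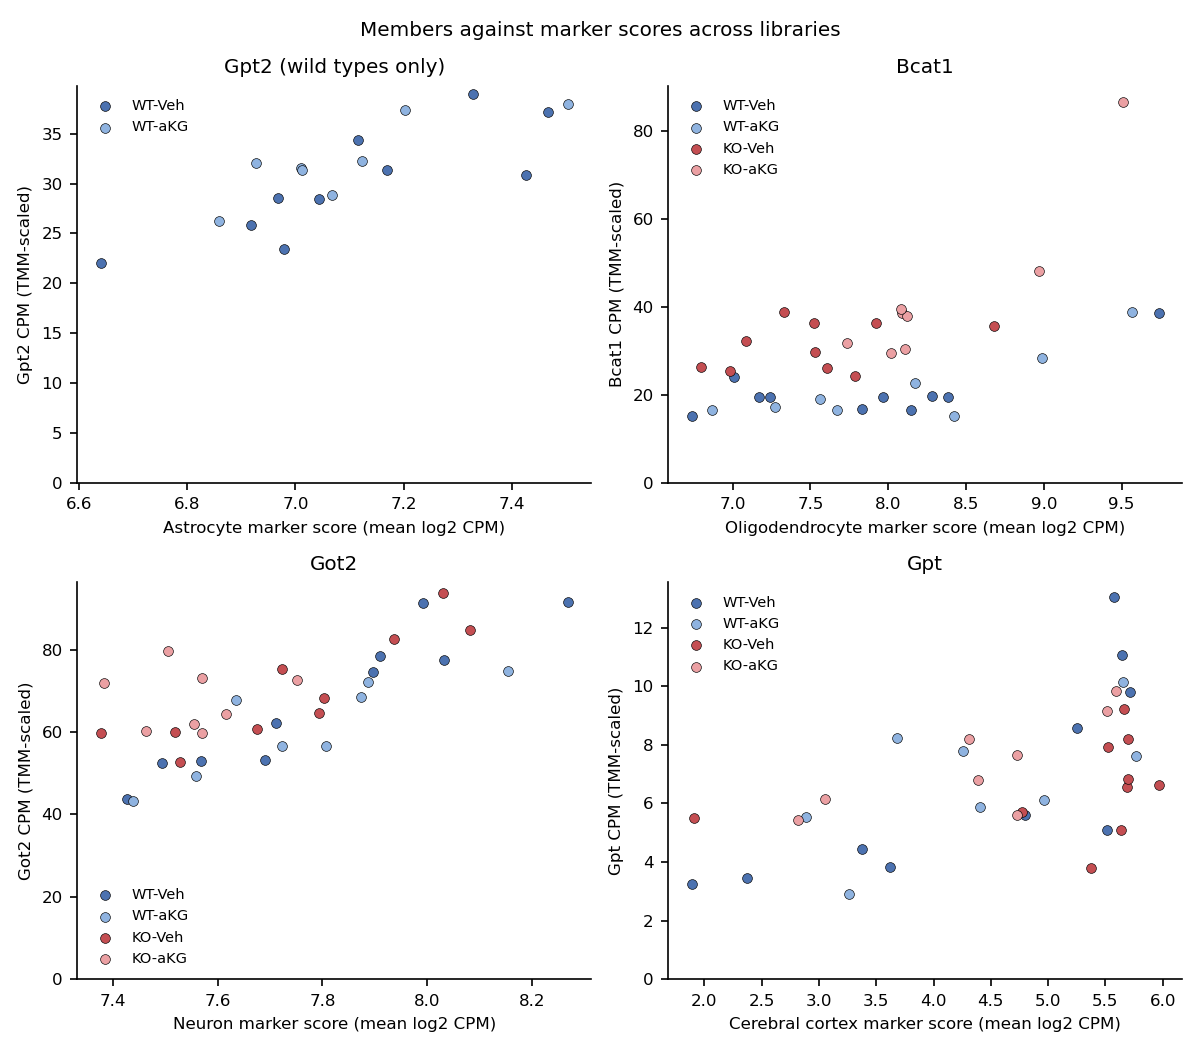
CPM (TMM-scaled) of Gpt2, Bcat1, Got2 and Gpt (vertical axes from 0) against the mean log2 CPM of a marker list (horizontal axes), 1 point per library coloured by group. Gpt2 rises with astrocyte markers in wild types (r = 0.835 on the log2 scale), the 3 rightmost libraries of the Bcat1 panel hold 38.6, 38.9 and 86.6 CPM, and Got2 rises with neuron markers.

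Kyat1 ran opposite to the microglia score, with r = −0.685 (permutation p = 3e-05, adjusted p = 0.00048) and rho = −0.670 (permutation p = 3e-05, adjusted p = 0.000384). The r was −0.692 in wild types, −0.745 in knockouts, −0.595 without the cerebellum-high libraries and −0.585 without the 2 farthest. With the cerebellum score Kyat1 gave r = 0.633 (permutation p = 0.00015, adjusted p = 0.0012) and rho = 0.530 (permutation p = 0.00121, adjusted p = 0.0111). That r was 0.501 without the 2 farthest libraries and 0.370 without the cerebellum-high libraries. Kyat3 gave r = 0.483 with the astrocyte score (permutation p = 0.00448, adjusted p = 0.0239), rho = 0.471 (permutation p = 0.00638, adjusted p = 0.034) and r = 0.435 without the 2 farthest. Libraries share depth and tissue composition in all of these relations.

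The genes most like each member across libraries, with group means removed, were found among 10314 or 10315 genes whose mean reached 5 CPM. For Gpt2 in wild types they were Gjb6 (r = 0.935), which encodes connexin 30 and is on the astrocyte list, Gpam (0.900) and Hddc3 (0.893), over 18 libraries. For Gpt they were Nherf1 (0.834), Glul (0.828), which encodes glutamine synthetase, and Trim37 (0.827), over 36 libraries. Got1 was most like Got2 (0.836), and then Pgam1 (0.833) and Nckipsd (0.818). Got2 was most like Rab3a (0.919), Vps41 (0.912) and Actr1a (0.908). For Bcat1 they were Laptm4b (0.846), Pacsin2 (0.838) and Plcl1 (0.838). For Kyat1 they were Auh (0.787), Hbp1 (0.728) and Ctsf (0.719). Bcat2 (Taf15, 0.647) and Kyat3 (Pnpla2, 0.670) had weaker nearest genes. Among the members, Got1 and Bcat1 (r = 0.692) came next after Got1 and Got2, and Gpt2 and Gpt gave 0.453, over 36 libraries.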

How the data were processed

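Polyadenylated RNA was captured with barcoded oligo-dT primers that also carry unique molecular identifiers, per the labels' protocols. HISAT2 2.2.1 and featureCounts 2.0.6 are named among the tools, and mm10 and mm39 as builds, per the submitters' processing notes. For the counts, the build, the use of strand and the use of molecular identifiers were not given in the sources used here. Estimated counts per gene and CPM are the values the authors deposited, and only the DESeq2 fit applied rounding to the counts. Multiplied by 1 constant per library, the CPM gave back the counts to within 0.51 for 100% of its genes (rounded). The 9 members, the gene lists and the tests were chosen with earlier results of these data known. The genotype and treatment tests were run in edgeR 4.0.16 under R 4.3.3 (filterByExpr, TMM, robust quasi-likelihood) on all 36 libraries in 4 groups without covariates. Intervals are 95% from the SE, and log2 CPM used a prior count of 2. No 2 libraries of a group were identical among 146 pairs. Genes beyond the members were named by rule: up to 4 called members of a list by size of change, all of lists of 7 or fewer, and the 3 most correlated genes. A result that this rule covers is not reported here. Correlations used log2 CPM with group means removed and 100000 permutations within groups (Python 3.11.15). Same-numbered libraries of different groups were not paired, because no label says that the numbers pair them. The correlation of their deviations over 2000 genes exceeded 0.1 in 28 of 50 pairs (median 0.131, from −0.770 to 0.880). The count over 0.1 was not worked out for different-numbered pairs, so it does not decide whether the numbers pair libraries. Coordinates are GENCODE's for GRCm38, and promoter windows are RefSeq's for GRCm38.p6. The fit was also run on simulated counts that held no differences of brain region or cell type. That run does not cover such differences among the libraries here.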

Additional observations from a re-analysis of the deposited data

Results flagged for a closer look

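Among 36 sets of libraries (9 members in 4 groups), 3 held a library far from the rest of its group, where chance alone flags about 1 in 20. Bcat1 was at 38.6 CPM in WT-Veh replicate 2, where the next library was at 23.9 and the gap was 0.624 of the range (limit 0.466 for 10 libraries). Bcat1 was at 86.6 CPM in KO-aKG replicate 8, where the next was at 48.1 and the gap was 0.673 of the range (limit 0.526 for 8). Both libraries are among the 3 with the highest oligodendrocyte marker scores, at 9.74 and 9.51. Kyat1 was at 9.02 CPM in KO-Veh replicate 7, where the next was at 6.79 and the gap was 0.506 of the range. That library had the highest cerebellum score of all (7.86) and a microglia score of 3.46. The part of these scores in the Kyat1 value was not tested.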

How the results depend on the processing

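No call of a member reversed its direction. The calls of Bcat1, Got1 and Got2 depended on the fit. With vehicle, 2 members were called instead of 1 with DESeq2 (Bcat1 adjusted p = 0.0456), in the fit to the groups of the contrast only (adjusted p = 0.0388), with 5 region scores (0.67, adjusted p = 0.00888), with the oligodendrocyte score and without the 3 libraries highest in oligodendrocyte markers. With 4 cell type scores the counts of members called were 3 with vehicle, 4 with dm-αKG (Got1 0.33, adjusted p = 0.0460; Got2 0.38, adjusted p = 0.00213) and 4 averaged. In the fit to the groups of the contrast only, 1 member was called with dm-αKG. The fits with cell type or oligodendrocyte scores, and those without the 3 libraries, were chosen after seeing the data, and the cause of the changes was not tested. With a replicate block the members called did not change (Bcat1 0.60 with vehicle, adjusted p = 0.0571, and 0.96 with dm-αKG, adjusted p = 0.0102). Of 50 same-numbered pairs, 9 correlated best with their own number, and the count that chance would give was not worked out. Leaving out 1 library at a time gave 1 to 2 members called with vehicle (Bcat1 0.54 to 0.72, called without WT-Veh replicate 2, WT-aKG replicate 8 or KO-aKG replicate 8) and unchanged counts of members otherwise.

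Counts over all genes moved more: 701 with vehicle became 164 to 3078, 304 with dm-αKG became 144 to 1502, and 1931 averaged became 948 to 4590, the highest with 4 cell type scores. The 0 genes called for treatment in wild types became 78 with DESeq2, 124 with 5 region scores and 235 with 4 cell type scores, and the 0 in knockouts became 1 with 4 cell type scores. The low ends were 164 and 948 with limma on log2(CPM + 0.1) and 144 without the 3 libraries highest in oligodendrocyte markers. Without 1 library they were 440 (without KO-Veh replicate 10) to 1663 (without KO-Veh replicate 7), 133 (without KO-aKG replicate 8) to 369, and 1455 to 2945 (without KO-Veh replicate 7). limma on the authors' CPM, which is not TMM-scaled, moved the median log2 fold change of all genes with dm-αKG to 0.14, and split its calls 211 higher and 5 lower, against 182 and 122. Bcat1 was at 1.08 in that fit, still above the shift. For the 6 uncalled members, 5 of 528 values in other fits passed the threshold, all for Got1 or Got2 with 4 cell type scores, and 61 changed sign. Depth left Aadat, at 0 to 7 counts per library, untested.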
